A study of Mus musculus with 80 samples.

Results

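Myostatin, the activins and their SMAD mediators were followed through 10 genes in the gastrocnemius, the large calf muscle, of C57BL6/J mice whose hindlimbs had been relieved of body weight. The genes were taken by symbol from the deposited expression tables. They were the ligand genes Mstn and Inhbb and the receptor genes Acvr2a, Acvr2b and Acvr1b. The others were the follistatin gene Fst, the follistatin-like gene Fstl1, and the SMAD genes Smad2, Smad3 and Smad7. All 10 were among the 12853 genes of the male table, and 9 were among the 11068 genes of the female table, which held no row for Inhbb. Groups were hindlimb unloading for 24 h (8 female and 8 male libraries), 48 h (8 and 9), 72 h (8 and 9) and 168 h (7 and 8), each set against Control mice of the same sex at 0 h (8 and 7). All mice carried the same genotype and their age is not given in the labels. The design text gives 8 mice per group, and nothing in the labels says that a library is 1 animal, so p-values measure the spread between libraries.

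Myostatin and the activins are secreted dimers of the TGF-beta superfamily. They bind the type II receptors ACVR2A and ACVR2B, which recruit and phosphorylate a type I receptor such as ACVR1B (also called ALK4), and this in turn phosphorylates SMAD2 and SMAD3. In skeletal muscle the pathway is known as a brake on fibre size: loss of myostatin enlarges muscle, and follistatin, which traps these ligands, does the same.

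Acvr1b rose at all 4 times in both sexes, by 1.47-fold to 2.26-fold. Smad3 fell at 48 h in females and at 24, 48 and 168 h in males, while no change of Smad2, Smad7, Acvr2a or Fst passed the test at any time. Fstl1 fell at all 4 times in females and at 48 h in males. In males Mstn rose at 24 and 168 h and Acvr2b fell at 24 h. Inhbb rose at 24, 48 and 72 h in males, and its higher level at 168 h is a description, since 2 libraries of that group brought the gene into the table. The plot of changes over the course shows all 10 genes together.

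**Figure D1:**
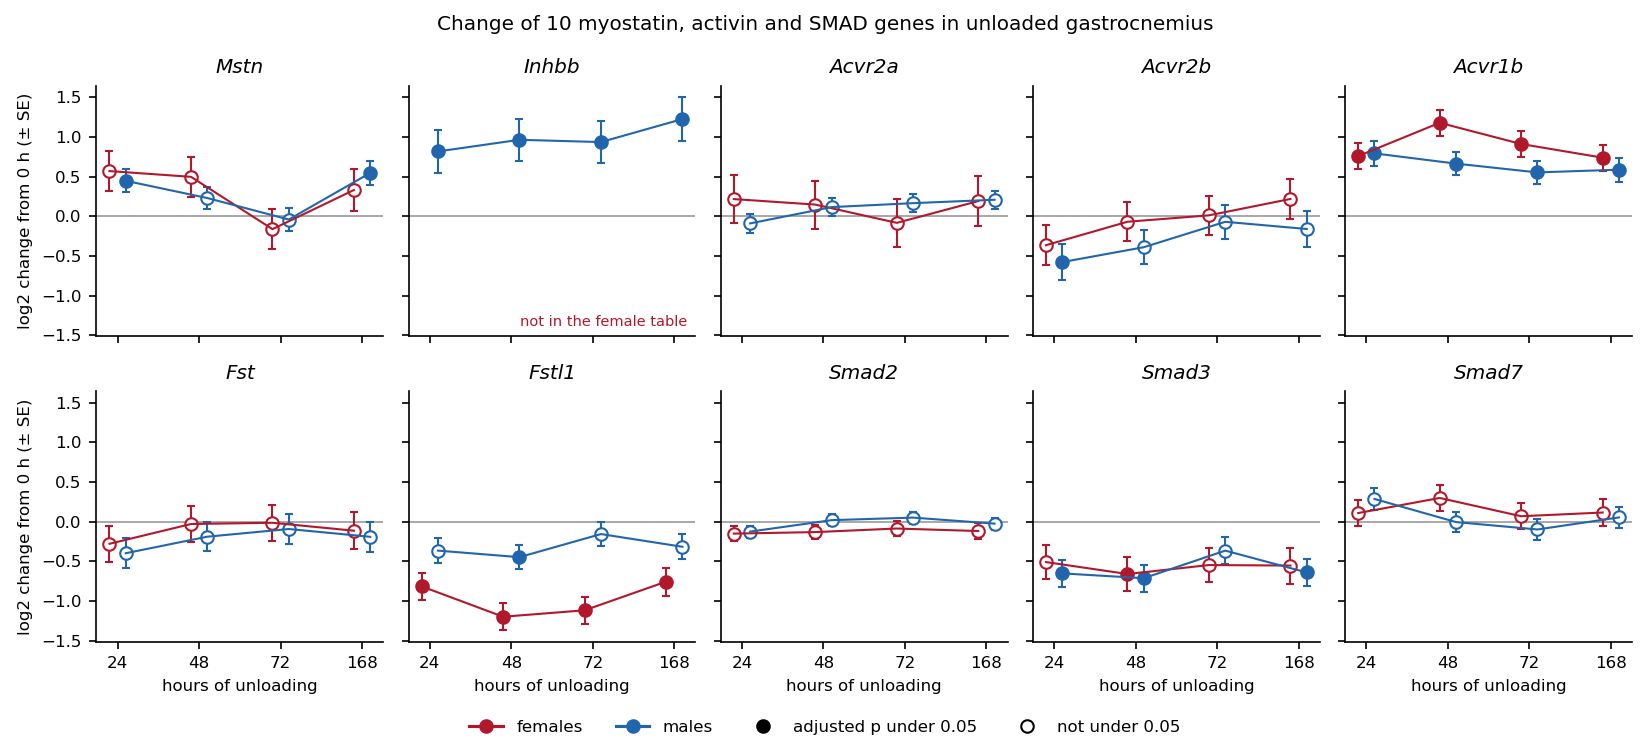
Log2 change from 0 h (y axis, limma estimate ± SE) against hours of unloading (x axis, equally spaced) for each of the 10 genes, females in red and males in blue. Filled points have an adjusted p under 0.05: Acvr1b is filled at all 8 points, Fstl1 at all 4 female points, and Acvr2a, Fst, Smad2 and Smad7 at none. The filled Inhbb point at 168 h is a description only, since libraries of that group brought the gene into the table.

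The 250 bases before the start of 4 of these genes are shown, whose calls differed in direction and number. Over the 8 comparisons with 0 h, Acvr1b was called higher in 8 and Mstn in 2, both in males. Smad3 was called lower in 4 and Fstl1 in 5. The sequences are those of RefSeq on GRCm38.p6, in which 7 of the 10 genes were matched. Capitals mark every match, on either strand, to 4 short motifs: the E-box CANNTG, bound by MyoD and other helix-loop-helix factors, the SMAD-binding motif CAGAC, the GC box GGGCGG and the TATA box TATAAA. Mstn lies at chr1:53061390-53061639 (plus strand), Acvr1b at chr15:101173822-101174071 (plus strand), Smad3 at chr9:63757995-63758244 (minus strand) and Fstl1 at chr16:37776805-37777054 (plus strand).
Mstn: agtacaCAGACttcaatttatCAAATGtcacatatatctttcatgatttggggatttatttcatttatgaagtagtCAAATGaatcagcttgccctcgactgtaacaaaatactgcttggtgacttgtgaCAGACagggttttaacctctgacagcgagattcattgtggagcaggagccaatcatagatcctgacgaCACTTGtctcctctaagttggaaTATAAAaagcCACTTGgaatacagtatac
Acvr1b: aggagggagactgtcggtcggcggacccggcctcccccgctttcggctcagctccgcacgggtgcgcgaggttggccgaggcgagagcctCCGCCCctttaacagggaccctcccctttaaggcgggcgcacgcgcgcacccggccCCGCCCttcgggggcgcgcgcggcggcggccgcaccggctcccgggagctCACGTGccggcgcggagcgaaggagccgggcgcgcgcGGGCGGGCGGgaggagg
Smad3: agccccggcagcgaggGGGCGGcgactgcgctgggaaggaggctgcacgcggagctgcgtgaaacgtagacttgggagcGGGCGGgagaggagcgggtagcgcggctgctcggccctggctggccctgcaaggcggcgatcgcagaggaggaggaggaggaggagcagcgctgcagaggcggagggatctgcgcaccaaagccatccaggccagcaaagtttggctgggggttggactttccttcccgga
Fstl1: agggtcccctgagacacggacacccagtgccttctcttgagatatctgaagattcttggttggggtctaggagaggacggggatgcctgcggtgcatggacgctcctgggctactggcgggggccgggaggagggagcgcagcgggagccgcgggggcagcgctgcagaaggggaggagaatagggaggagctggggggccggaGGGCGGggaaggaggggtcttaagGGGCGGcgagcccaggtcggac

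Among the 4 windows shown, only that of Mstn held a SMAD motif or a TATA box. Its 4 E-boxes began 229, 174, 52 and 19 bases before the start. It also held 2 SMAD motifs at 244 and 120 bases and a TATA box at 29 bases, with no GC box. Of the matched genes not shown, Acvr2a and Acvr2b each had 1 SMAD motif in their windows. The Acvr1b window held 4 GC boxes, of which the pair nearest the start overlap, and 1 E-box, CACGTG, at 54 bases. The Smad3 and Fstl1 windows each held 2 GC boxes and none of the other motifs. G and C made up 38.4% of the Mstn window, 78.8% of that of Acvr1b, 69.2% of that of Smad3 and 68% of that of Fstl1, and the median over 32851 RefSeq windows was 52.4%. An E-box was present in 66.2% of those windows, a SMAD motif in 42.2%, a GC box in 32.7% and a TATA box in 12.4%. A match describes the letters of the window and not a site in use.

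Signal values are the authors' expression values, which behave only in part as reads divided by 1 size factor per library. Per library, 53.9% to 71.7% of low values lay within 0.03 of a whole number of reads. The 2 tables were scaled separately, so levels are compared within a sex only. Estimated depth, over the genes of each table only, was 5.56 to 50.5 M reads per female library and 18.0 to 49.7 M per male library. It was lowest in females at 24 h (mean 9.03 M) and 72 h (6.72 M). Sample-sheet numbers in the sample titles divide the libraries of each sex into 3 sets. Control and unloaded libraries shared a set for females at 48 h, for males at 168 h and for 2 of the 9 male libraries at 72 h, and elsewhere the set and the time cannot be told apart. In 7 female libraries, 1 or 2 in each group, the median Spearman correlation with the rest of their group was under 0.95. All 8 muscle fibre markers (Ckm, Acta1, Myh4 and others) were present in every group of both tables, none at 0. In bulk tissue, fewer cells of a type and less RNA per cell cannot be told apart.

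Each comparison with 0 h was tested with limma on log2(signal + 1), with Benjamini-Hochberg adjustment over all genes of the table and a threshold of 0.05, and fold changes are on that scale. From 24 to 168 h, 2, 3, 2 and 2 of the 9 genes were called in females, beside 24.7%, 38.1%, 30% and 10.7% of all genes tested. In males 5, 4, 2 and 4 of the 10 were called, beside 29.1%, 31%, 10.8% and 22.5% of all genes. A moderated F-test over the 4 times called 2 of 9 genes in females (Acvr1b and Fstl1), where 43.2% of all genes were called, and 4 of 10 in males (Acvr1b, Mstn, Smad3 and Inhbb), where 37.2% were called. Every row of either table reached 100 in at least 1 library. Inhbb reached it in 2 male libraries, both at 168 h, so it is in the table through that group. Without it 4, 3, 1 and 3 of 9 genes were called in males at the 4 times, and Acvr1b, Mstn and Smad3, 3 of 9, by the F-test.

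Mstn encodes myostatin itself, which muscle fibres secrete. In males its signal ran from 2494 to 4745 with a median of 3702 at 0 h, from 3269 to 6050 (median 4934) at 24 h, from 3251 to 5461 (median 4092) at 48 h, from 2675 to 4387 (median 3576) at 72 h, and from 3991 to 6937 (median 4683) at 168 h. Values at 24 and 168 h were shifted up but overlapped the controls, and the group at 72 h lay within the range of the others. The change from 0 h was 0.45 ± 0.15 (SE) on the log2 scale at 24 h, with 7 of 8 libraries above the control mean (adjusted p = 0.019, limma). At 48 h it was 0.23 ± 0.14 (adjusted p = 0.22), at 72 h -0.04 ± 0.14 (0.91), and at 168 h 0.55 ± 0.15 with 8 of 8 libraries above the control mean (0.0058). The highest male medians were thus at 24 and 168 h, and that at 72 h was near control.

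The step from 72 to 168 h was tested by itself. In males Mstn was 0.59 ± 0.14 higher at 168 h than at 72 h on the log2 scale (adjusted p = 0.045, limma), and it was the only 1 of the 10 genes called at that step, where 0.296% of all genes were called. Without the robust trend fit the adjusted p was 0.052, and the call was lost when any 1 of 19 of the 41 male libraries was left out, with estimates of 0.52 to 0.64 and adjusted p up to 0.14. Replicates 3, 4, 5, 6, 8 and 9 of the 72 h group and 3, 5, 6, 7 and 8 of the 168 h group were among them. All male 168 h libraries were of the controls' set, but at 72 h only replicates 1 and 2 were. The set and this step can thus not be fully told apart. With replicates 1 and 2 alone, the Mstn change from 0 h to 72 h was 0.11 ± 0.23. None of the 10 was called from 24 to 48 h in males, where 0.0156% of all genes were called and 1 of the 10 had an unadjusted p under 0.05, nor from 48 to 72 h, where 8.81% of all genes were called and 3 of the 10 had an unadjusted p under 0.05. The 24 h call was lost without the control replicate 4 (adjusted p 0.054), 5 (0.061) or 6 (0.051), and the 168 h call held without any 1 male library (adjusted p 0.0025 to 0.022).

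In females Mstn ran from 486 to 1383 (median 1127) at 0 h, from 739 to 2147 (median 1469) at 24 h, from 724 to 3566 (median 1277) at 48 h, from 461 to 1177 (median 920) at 72 h, and from 723 to 1491 (median 1351) at 168 h. The 48 h group was stretched by a single library at 3566, and the other 7 libraries of that group reached no more than 1733. From 24 to 168 h the log2 changes were 0.57 ± 0.25, 0.50 ± 0.25, -0.16 ± 0.25 and 0.33 ± 0.26, with adjusted p of 0.094, 0.12, 0.68 and 0.48 (limma). No female change passed the test, and as in males the lowest estimate was that at 72 h. The sex difference in change, female minus male, lay between -0.22 and 0.27 at the 4 times and was not called at any. In females no step between neighbouring times was called for any of the 9 genes, and neighbouring female groups were of different sets at every step. Of all genes 6.66% were called from 24 to 48 h, 0.596% from 48 to 72 h and 3.56% from 72 to 168 h, and the number of the 9 genes with an unadjusted p under 0.05 was 2, 1 and 1. At 24 h the call appeared when the 7 libraries that stood apart were left out (0.63, adjusted p = 0.049), and in the authors' deposited table of test results Mstn had a log2 ratio of 0.58 at 48 h with an FDR of 0.045.

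Inhbb encodes the beta-B chain of the activins and inhibins, and 2 such chains joined form activin B. In males its signal was low and ran from 9.62 to 52.7 (median 25.1) at 0 h, from 30.9 to 91.02 (median 43.7) at 24 h, from 36.4 to 67.6 (median 53.8) at 48 h, from 35.8 to 80.5 (median 51.2) at 72 h, and from 40.04 to 122 (median 56.3) at 168 h. All 8 libraries at 24 h, all 9 at 48 h and all 9 at 72 h were above the control mean, while the highest control overlapped each unloaded group. In the order of time, Inhbb changed by 0.82 ± 0.27 (adjusted p = 0.021), 0.96 ± 0.27 (0.0050), 0.94 ± 0.27 (0.017) and 1.23 ± 0.27 on the log2 scale (limma). That is 1.76-fold to 1.95-fold from 24 to 72 h, and 2.34-fold at 168 h. No p is given at 168 h, because libraries of that group brought Inhbb into the table.

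The lowest control, replicate 6, weighed on these values. Without it the log2 change was 0.59 at 24 h (adjusted p = 0.089) and 0.71 at 72 h (0.070), and the 24 h call was also lost without replicate 4 (0.052) or 7 (0.057) of that time. Among the male 72 h libraries, the 2 that shared a set with the controls gave 0.48 (adjusted p = 0.61). Of 5 endothelial markers, 2 were called higher and 1 lower in males at 24 and again at 48 h. Their summed signal had medians of 8230, 8225, 8353, 8272 and 7078 over the 5 times. The part of these markers in the Inhbb result was not tested.

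**Figure D2:**
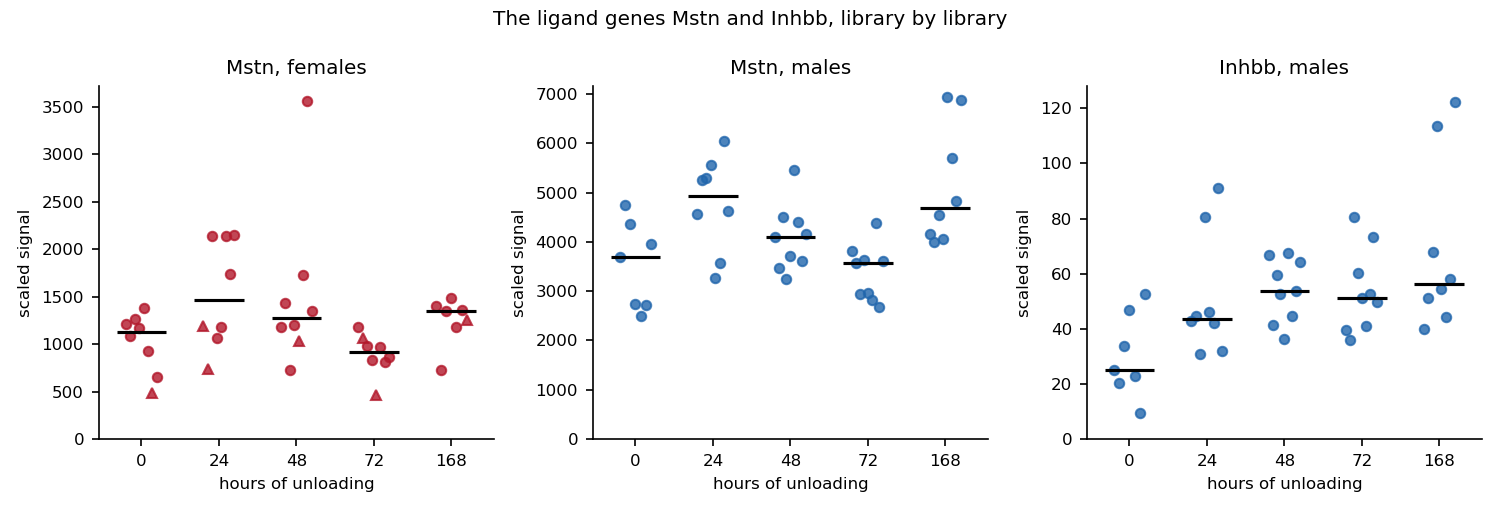
Scaled signal (y axis) of Mstn in females and males and of Inhbb in males against hours of unloading (x axis, equally spaced), 1 point per library, triangles for the 7 female libraries that stood apart, bars for medians. Mstn medians in males are 3702, 4934, 4092, 3576 and 4683 from 0 to 168 h, and the lowest male Inhbb values are at 0 h.

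Of the type II receptor genes, Acvr2a was called at no time. Acvr2a, which encodes a receptor for the activins and myostatin, had log2 changes of -0.08 to 0.22 in females (SE 0.30 to 0.31). In males they were -0.09 to 0.21 (SE 0.11 to 0.12), and the lowest adjusted p of either sex was 0.19 (limma). Acvr2b, the receptor with the better known part in myostatin signalling, was called once: at 24 h in males its signal ran from 83.6 to 321 (median 217), against 227 to 360 (median 278) in 0 h males. The groups overlapped, 7 of 8 unloaded libraries lay below the control mean, and the change was -0.58 ± 0.22 (adjusted p = 0.047, limma). This call was lost when any 1 of 19 libraries was left out, controls 1, 2, 4, 5, 6 and 7 and replicates 3, 4, 5 and 7 of the 24 h group among them (adjusted p up to 0.14), and in the authors' deposited table the FDR was 0.079. In males the estimates at the later times were -0.39 ± 0.22, -0.07 ± 0.22 and -0.16 ± 0.22, none called. At 48 h in males 0 of 9 libraries were above the control mean. In females the estimates ran from -0.36 ± 0.25 at 24 h to 0.22 ± 0.26 at 168 h, none called.

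Acvr1b encodes the type I receptor through which activins and myostatin signal, and it was the member with the broadest change. In females it ran from 749.6 to 1578 (median 1078) at 0 h, from 1163 to 2539 (median 1891) at 24 h, from 1673 to 3247 (median 2434) at 48 h, from 1568 to 2766 (median 1934) at 72 h, and from 1311 to 2107 (median 1781) at 168 h. The 48 h group did not overlap the controls, and at 72 h the lowest unloaded library was just under the highest control. Changes from 0 h on the log2 scale were 0.76 ± 0.16, 1.18 ± 0.16, 0.91 ± 0.16 and 0.74 ± 0.17 from 24 to 168 h, with adjusted p of 5.9e-04, 4.9e-07, 4.2e-05 and 0.0026 (limma).

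In males Acvr1b ran from 1642 to 3804 (median 2816) at 0 h, from 3613 to 5184 (median 4617) at 24 h, from 3102 to 5075 (median 4294) at 48 h, from 2894 to 5379 (median 3831) at 72 h, and from 2975 to 5056 (median 4211) at 168 h. The highest control overlapped each unloaded group, and all 34 unloaded male libraries, like all 31 female ones, were above the mean of their controls. Male log2 changes were 0.79 ± 0.15, 0.66 ± 0.15, 0.55 ± 0.15 and 0.59 ± 0.15 at 24, 48, 72 and 168 h, with adjusted p of 1.5e-04, 7.1e-04, 0.012 and 0.0047 (limma). Female minus male differences were 0.51 ± 0.22 at 48 h (adjusted p = 0.32) and 0.36 ± 0.22 at 72 h (0.42), so a difference between the sexes was not shown. The rise was present where the set was shared, in females at 48 h and in males at 168 h. The male 72 h call was lost without control replicate 4 (0.44, adjusted p = 0.052), and among the 7 male 72 h libraries of another set than the controls it was 0.45 (adjusted p = 0.072).

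Follistatin, the product of Fst, binds activins and myostatin and keeps them from their receptors. Fst had low signal, which spanned 40.4 to 145 in females and 108.6 to 319.6 in males. Its log2 changes were negative at all 8 comparisons, from -0.40 ± 0.19 in males at 24 h (adjusted p = 0.11, limma) to -0.01 ± 0.23 in females at 72 h, and none was called. The control group of males held a single library at 302, while its other 6 libraries lay between 174 and 203. Without replicate 4 of the 24 h males, the 24 h change was -0.50 (adjusted p = 0.041).

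Fstl1 encodes a secreted glycoprotein with a follistatin-like domain, made mainly by mesenchymal cells. In females its signal ran from 886 to 1982 (median 1359) at 0 h, from 544 to 993 (median 743) at 24 h, from 379 to 786 (median 628) at 48 h, from 404 to 859 (median 625) at 72 h, and from 533 to 1033 (median 789.9) at 168 h. The 48 and 72 h groups lay wholly below the controls, and all 31 unloaded libraries were below the control mean. The log2 changes were -0.81 ± 0.17, -1.20 ± 0.17, -1.11 ± 0.17 and -0.75 ± 0.18 at 24, 48, 72 and 168 h, with adjusted p of 5.2e-04, 9.3e-07, 4.7e-06 and 0.0037 (limma).

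In males Fstl1 ran from 1532 to 3582 (median 2427) at 0 h, from 1377 to 2250.0 (median 1770.0) at 24 h, from 1270.2 to 2256 (median 1582) at 48 h, from 1534 to 3069 (median 2122) at 72 h, and from 1275 to 2601 (median 1832) at 168 h. All male groups overlapped. On the log2 scale the male changes were -0.36 ± 0.16 (adjusted p = 0.076), -0.45 ± 0.15 (0.023), -0.15 ± 0.15 (0.58) and -0.31 ± 0.16 (0.14). The 48 h call was lost without control replicate 2 (0.089) or 4 (0.057), or replicate 1 (0.05001) or 2 (0.052) of the 48 h group. In the authors' deposited table Fstl1 was below the threshold in males at both 24 h (FDR 0.036) and 48 h (FDR 0.0088).

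The sex difference in the change of Fstl1 was tested in a joint model of both tables over the 10964 genes they share. At 72 h the female change was lower than the male change by a log2 difference of -0.96 ± 0.23 (adjusted p = 0.014, limma), and Fstl1 was the only 1 of 9 genes called, where 2.44% of all genes were called. The difference was -0.45 ± 0.23 at 24 h, -0.75 ± 0.23 at 48 h and -0.44 ± 0.24 at 168 h, with adjusted p of 0.85, 0.14 and 0.9999. At those times limma called none of the 9 genes, beside 0.0547%, 0.301% and 0.0182% of all genes, and 0, 2 and 0 of the 9 had an unadjusted p under 0.05. The 72 h call held without any 1 of the 80 libraries (-1.07 to -0.87, adjusted p up to 0.039). Female 72 h libraries were the shallowest of the series and lay in another set than their controls.

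Some markers of connective tissue cells were called lower in females, more of them at 48 and 72 h than at 24 and 168 h. Of all 11068 genes, 1205, 1890, 1463 and 485 were called lower in females from 24 to 168 h. Of 7 fibro-adipogenic progenitor markers, 4 were called lower at 48 h and 4 at 72 h in females, with median log2 changes of -0.66 at both times, and of 5 tenocyte markers 4 were called lower at each, with medians of -0.92 and -0.96. At 24 and 168 h, where Fstl1 was also lower, 2 progenitor markers and 1 tenocyte marker were called lower at each time, with medians of -0.09 and -0.12 for progenitors and of -0.65 and -0.68 for tenocytes. In males no marker of either list was called lower at 24, 48 or 72 h and 1 of each was called lower at 168 h, while 1 progenitor marker was called higher at 24 and at 48 h. Of all 12853 genes, 1847, 1889, 671 and 1479 were called lower in males from 24 to 168 h. The summed progenitor signal in females was 27681 to 42127 at 48 h and 25856 to 38310 at 72 h, against 27155 to 44112 at 0 h, so these sums overlapped. Its median was 32834 at 0 h and 35784, 35284, 30589 and 35824 from 24 to 168 h, above the control median except at 72 h. The summed tenocyte signal was 1466 to 6942 at 48 h and 2438 to 5007 at 72 h, against 3789 to 10175 at 0 h. Its median was 6602.5 at 0 h and 5155, 4166, 3353 and 4255 from 24 to 168 h. Of these markers, Dcn and Col3a1 are also among the pathway genes described further on. From 24 to 168 h in females, Dcn changed by 0.21, 0.22, -0.11 and 0.11 on the log2 scale, none called. Col3a1 changed by -0.96, -1.66, -1.79 and -1.04, all called. No marker of these 2 lists was at 0 in every library of a female group, and all 4 red blood cell markers were also called lower in females at 72 h. The part of these markers in the Fstl1 result was not tested.

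**Figure D3:**
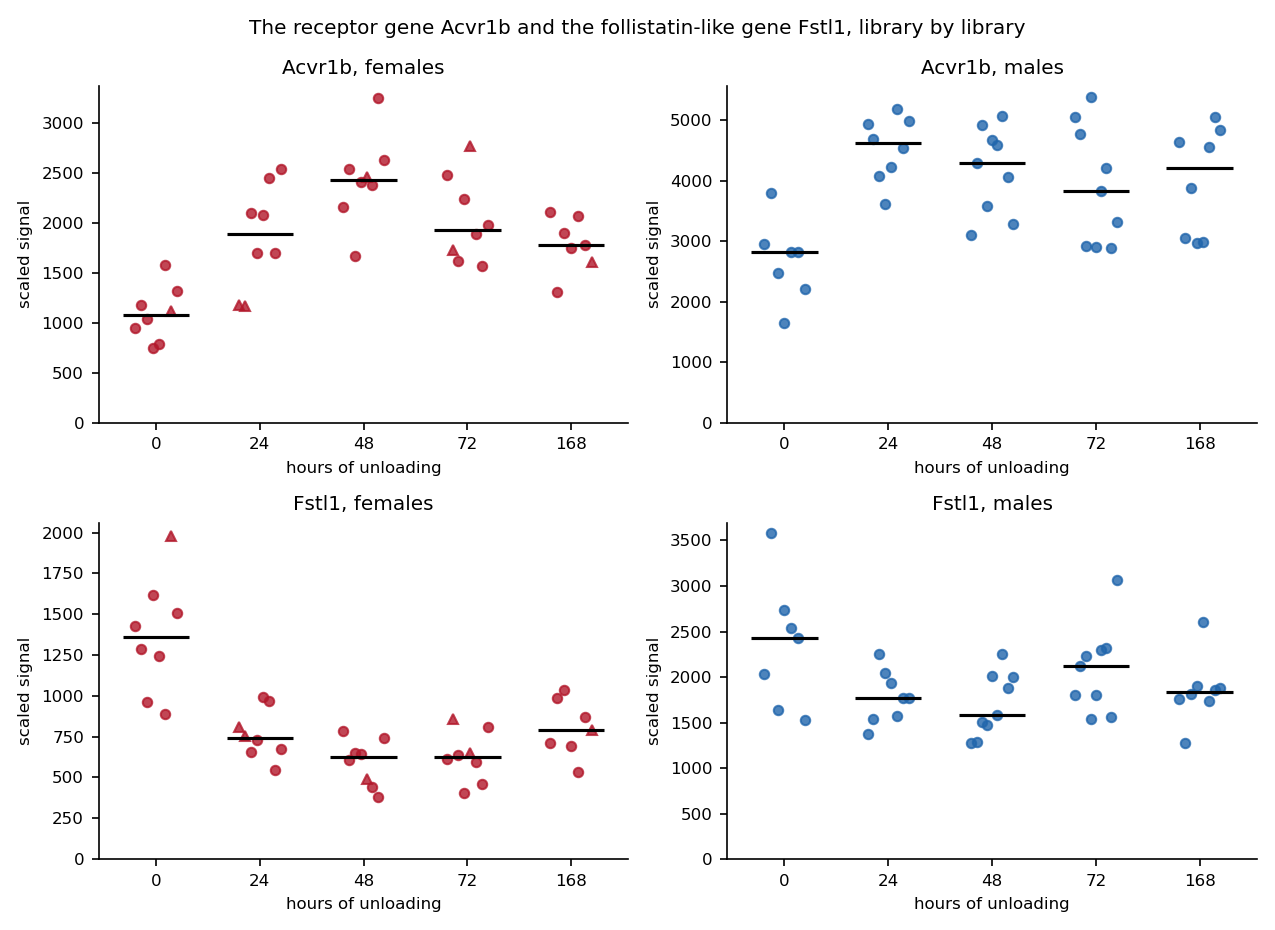
Scaled signal (y axis) of Acvr1b and Fstl1 in females (left) and males (right) against hours of unloading (x axis, equally spaced), 1 point per library, triangles for the 7 female libraries that stood apart, bars for medians. Female Fstl1 at 48 and 72 h lies wholly below 0 h, where the lowest library is 886, and female Acvr1b at 48 h lies wholly above 0 h, where the highest is 1578.

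SMAD2 and SMAD3 are the receptor-regulated SMADs of this branch, and of their genes Smad3 was called and Smad2 was not. Smad3 in males ran from 3333 to 5249 (median 3981) at 0 h, from 1967 to 3133 (median 2692) at 24 h, from 1240 to 4137 (median 2618) at 48 h, from 2438 to 4076 (median 3276) at 72 h, and from 1822 to 4032 (median 2447) at 168 h. The 24 h group lay wholly below the controls, and the others overlapped them. The log2 changes were -0.65 ± 0.17 (adjusted p = 0.0040), -0.71 ± 0.17 (0.0012), -0.36 ± 0.17 (0.17) and -0.64 ± 0.17 (0.0062), and the 3 calls held without any 1 male library (limma). The 168 h change compares libraries of 1 set.

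Smad3 in females ran from 1344 to 1787 (median 1585) at 0 h, from 772 to 1391 (median 1063) at 24 h, from 387 to 1897 (median 1035) at 48 h, from 565 to 1676 (median 1059) at 72 h, and from 758 to 1399 (median 1019) at 168 h. The medians of the 4 unloaded groups were alike, while the 48 h group spread over the whole range. Female log2 changes of Smad3 were -0.51 ± 0.22 (adjusted p = 0.087), -0.66 ± 0.22 (0.016), -0.54 ± 0.22 (0.056) and -0.55 ± 0.23 (0.12), and 28 of 31 unloaded libraries were below the control mean (limma). The 48 h call was lost without replicate 6 (0.0505) or 7 (0.063) of that group. At 72 h the change was -0.72 (adjusted p = 0.014) without the libraries that stood apart.

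Smad2 changed by -0.15 to -0.08 in females and by -0.12 to 0.05 in males, with SE of 0.09 to 0.10 and 0.07 to 0.08 and a lowest adjusted p of 0.23 (limma). Its spread between libraries was narrow, with a coefficient of variation of 5.91% in 0 h females and 6.62% in 0 h males. Smad7, whose product is the inhibitory SMAD that blocks the type I receptor and is itself a known target of the pathway, changed by 0.07 to 0.30 in females and by -0.10 to 0.29 in males. Its lowest adjusted p was 0.10, at 24 h in males, where all 8 libraries were above the control mean and the change was 0.29 ± 0.13.

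**Figure D4:**
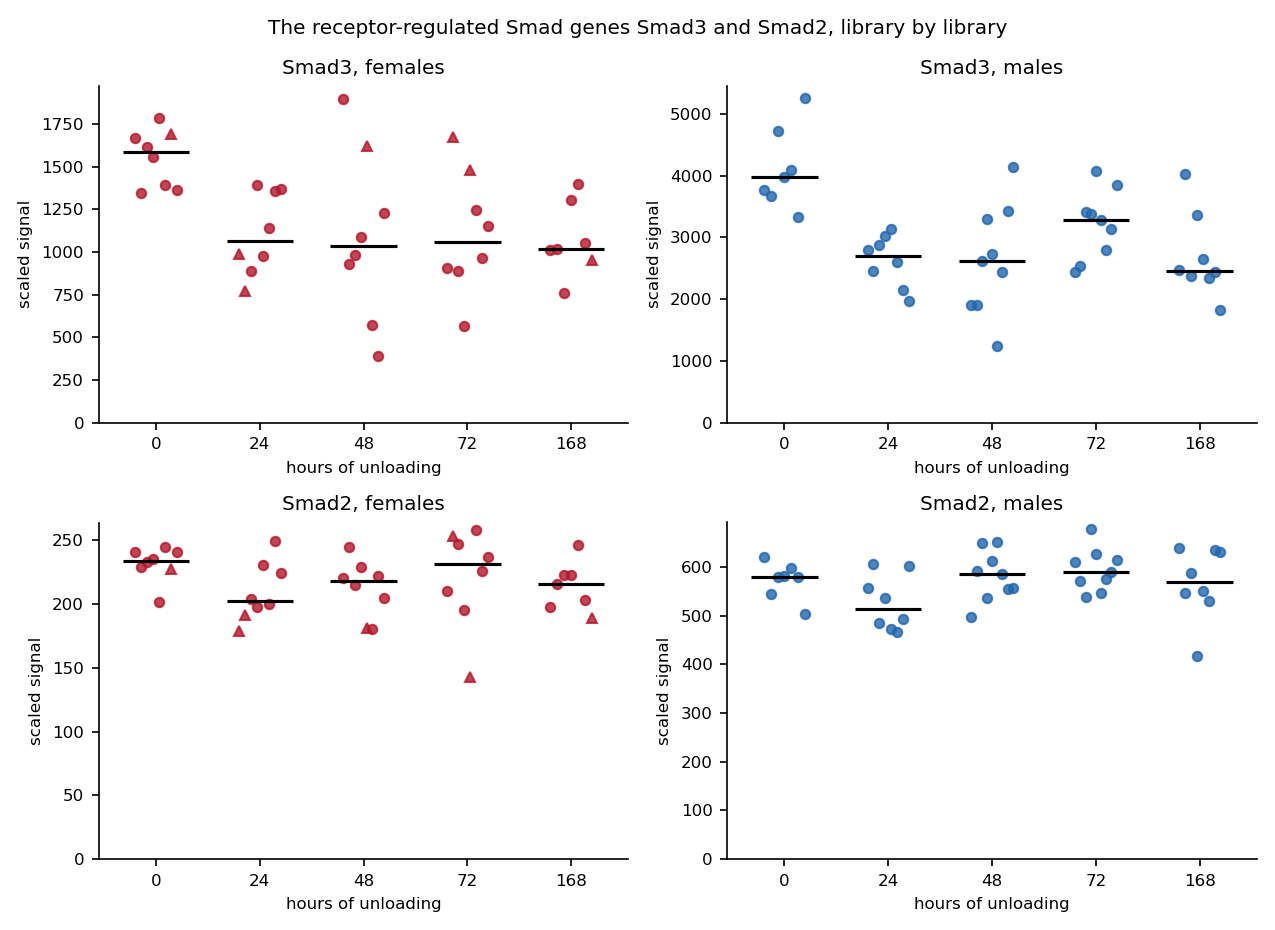
Scaled signal (y axis) of Smad3 and Smad2 in females (left) and males (right) against hours of unloading (x axis, equally spaced), 1 point per library, triangles for the 7 female libraries that stood apart, bars for medians. Male Smad3 at 24 h lies wholly below 0 h, where the lowest library is 3333, and Smad2 groups overlap at every time.

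Of the 76 comparisons of these genes with 0 h, the authors' deposited table had another sign than limma in 1, Fst in females at 72 h (log2 ratio 0.01). It gave Acvr1b ratios of 1.71, 2.24, 1.87 and 1.64 in females and of 1.70, 1.56, 1.47 and 1.49 in males at the 4 times.

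Genes whose signal ran most like that of 3 members were named by Pearson correlation over libraries, each gene centred on its own table mean. These correlations describe libraries that share groups, sets and depth. Over 80 libraries the genes most like Mstn were Gsk3b (r = 0.75), which encodes a glycogen synthase kinase, Usp38 (0.73), Lrrc58 (0.73), Ttll7 (0.72) and Tfdp2 (0.72). Those most like Smad3 were Pde4a (r = 0.82), which encodes a cyclic AMP phosphodiesterase, Slc41a3 (0.76), Stard8 (0.76), Steap3 (0.74) and Ttl (0.73). Over the 41 male libraries those most like Inhbb were Ranbp10 (r = 0.81), Pim1 (0.80), which encodes a serine/threonine kinase, Hexim1 (0.73), the endothelial claudin gene Cldn5 (0.73) and Plekhg1 (0.72).

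Around these 10 genes, 11 lists of genes of TGF-beta superfamily signalling, its regulators and targets were described. Of them 70 genes were measured in females and 79 in males, members included. In females 8, 12, 7 and 4 of the 70 were called higher and 14, 22, 15 and 7 lower at 24, 48, 72 and 168 h. In males 11, 11, 4 and 8 of the 79 were called higher and 11, 16, 5 and 11 lower. Of all genes tested 24.7%, 38.1%, 30% and 10.7% were called in females, and of those calls 55.9%, 55.2%, 55.99% and 59.0% were higher. In males 29.1%, 31%, 10.8% and 22.5% of all genes were called, and 50.7%, 52.6%, 51.8% and 48.9% of those calls were higher. The median log2 change of the lists was -0.01, -0.02, -0.08 and 0.01 in females, beside 0.06, 0.06, 0.03 and 0.05 over all genes, and -0.06, -0.09, -0.02 and -0.06 in males, beside 0.01, 0.01, 0.00 and 0.00.

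Among the other ligands, Gdf11, the closest relative of Mstn, fell at all 4 times in females, by -0.85 ± 0.28 to -1.39 ± 0.28 on the log2 scale, and at 24 h (-0.76 ± 0.18) and 48 h (-0.85 ± 0.17) in males. Tgfb3, a TGF-beta isoform, fell at all 8 comparisons, by -0.33 to -0.49. Tgfb2 fell at 24 and 48 h in both sexes. Bmp4, a bone morphogenetic protein gene, rose at 48 h in females (0.39 ± 0.15) and at 24, 48 and 72 h in males (0.53 ± 0.14 at 24 h). Inhba, which encodes the beta-A chain of activin A and was measured in males only, fell at 48 h (-0.68 ± 0.23, adjusted p = 0.018, limma). Its moderated F-test over the male course was not called (adjusted p = 0.076), and quantile normalization ended the 48 h call (0.051, limma). Which libraries brought Inhba into the table was not looked at. Furin, the protease that cleaves TGF-beta family propeptides, rose at all 4 times in females, by 0.35 to 0.57, and at 24 and 168 h in males. Several of these calls rested on single libraries. Tgfb2 at 48 h was lost without replicate 7 of that group in females (adjusted p = 0.062) and without replicate 6 in males (0.052), and Inhba was lost without control replicate 4 or 5 (up to 0.074). Gdf11 in females at 168 h, Bmp4 at 48 h in both sexes and at 72 h in males, and Furin in females at 24 h and in males were each lost when any 1 of 4 to 11 libraries was left out, with adjusted p up to 0.14.

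Receptors and co-receptors moved in both directions. Tgfbr1, which encodes the TGF-beta type I receptor ALK5, rose at 48 h in females (0.96 ± 0.36) and at 24 h (0.29 ± 0.10) and 48 h (0.42 ± 0.10) in males, while Acvr1 fell at 24 h (-0.61) and 48 h (-0.49) in females and Acvrl1 at 48 h in both sexes and at 168 h in males. Without the 7 libraries that stood apart the 24 h change of Acvr1 was -0.38 (adjusted p = 0.057, limma). Eng, the endothelial co-receptor endoglin, fell at all 8 comparisons, by -0.35 to -0.61. Its male 72 h call was lost among the 72 h libraries of another set than the controls (-0.29, adjusted p = 0.073, limma). Of the 5 endothelial markers in females, 1 was called lower at each time and 1 higher at 24 h. In males 2 were called higher and 1 lower at 24 and at 48 h, 1 higher and 0 lower at 72 h, and 1 higher and 1 lower at 168 h. The part of these markers in the Eng result was not tested. Tgfbr3, which encodes betaglycan, a co-receptor for TGF-beta and inhibin, rose at 7 of 8 comparisons, by up to 0.76 ± 0.12 in females at 48 h, and was 0.25 ± 0.12 in males at 72 h (adjusted p = 0.20, limma). Rgmb, a BMP co-receptor gene, fell at 6. Leaving out any 1 of 4 to 8 libraries ended the calls of Tgfbr1 in females at 48 h and in males at 24 h, of Acvrl1 and Eng in females at 48 and 168 h in that order, of Tgfbr3 in males at 168 h, and of Rgmb at 72 h in both sexes and at 168 h in males, with adjusted p up to 0.11.

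Of the extracellular inhibitors, Chrd, which encodes the BMP antagonist chordin, rose at 24, 48 and 72 h in females. Inside the cell, Tgif1, a co-repressor of SMAD transcription, rose at 24, 48 and 72 h in females (1.23 ± 0.31, 1.94 ± 0.31 and 1.02 ± 0.31) and at 24, 48 and 168 h in males (1.14 ± 0.22, 1.17 ± 0.22 and 0.80 ± 0.22). Smurf2, a ubiquitin ligase gene that acts on SMADs and receptors, fell at all 4 times in males, by -0.20 to -0.32. Smad4, the shared partner SMAD, was called higher at 48 h in females (0.51 ± 0.11). The call of Smurf2 in males at 72 h was lost without any 1 of 9 libraries (adjusted p up to 0.094, limma).

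The listed SMAD target genes did not move together. Klf10, an early TGF-beta response gene, rose at 7 of 8 comparisons, by 1.19 to 1.73, and was 0.36 ± 0.25 in males at 72 h (adjusted p = 0.39, limma). Col1a1 and Fn1, which encode collagen and fibronectin, fell at all 4 times in females, Col1a1 also at 168 h and Fn1 at 48 h in males. At 72 h the change of Col1a1 was -2.72 ± 0.33 in females and -0.58 ± 0.40 in males, and that of Fn1 was -1.56 ± 0.21 in females and -0.40 ± 0.24 in males. The sex difference was called for Col1a1, Fn1 and Bmp1 at 72 h, as for Fstl1. These were the only 4 of 69 list genes called, beside 2.44% of all genes. Those of Fn1 and Bmp1 were lost without any 1 of 11 and 10 of the 80 libraries (adjusted p up to 0.096 and 0.078), and that of Col1a1 held (up to 0.048, limma). The male calls of Col1a1 at 168 h and Fn1 at 48 h were lost without any 1 of 7 and 14 libraries (adjusted p up to 0.079 and 0.14).

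**Figure D5:**
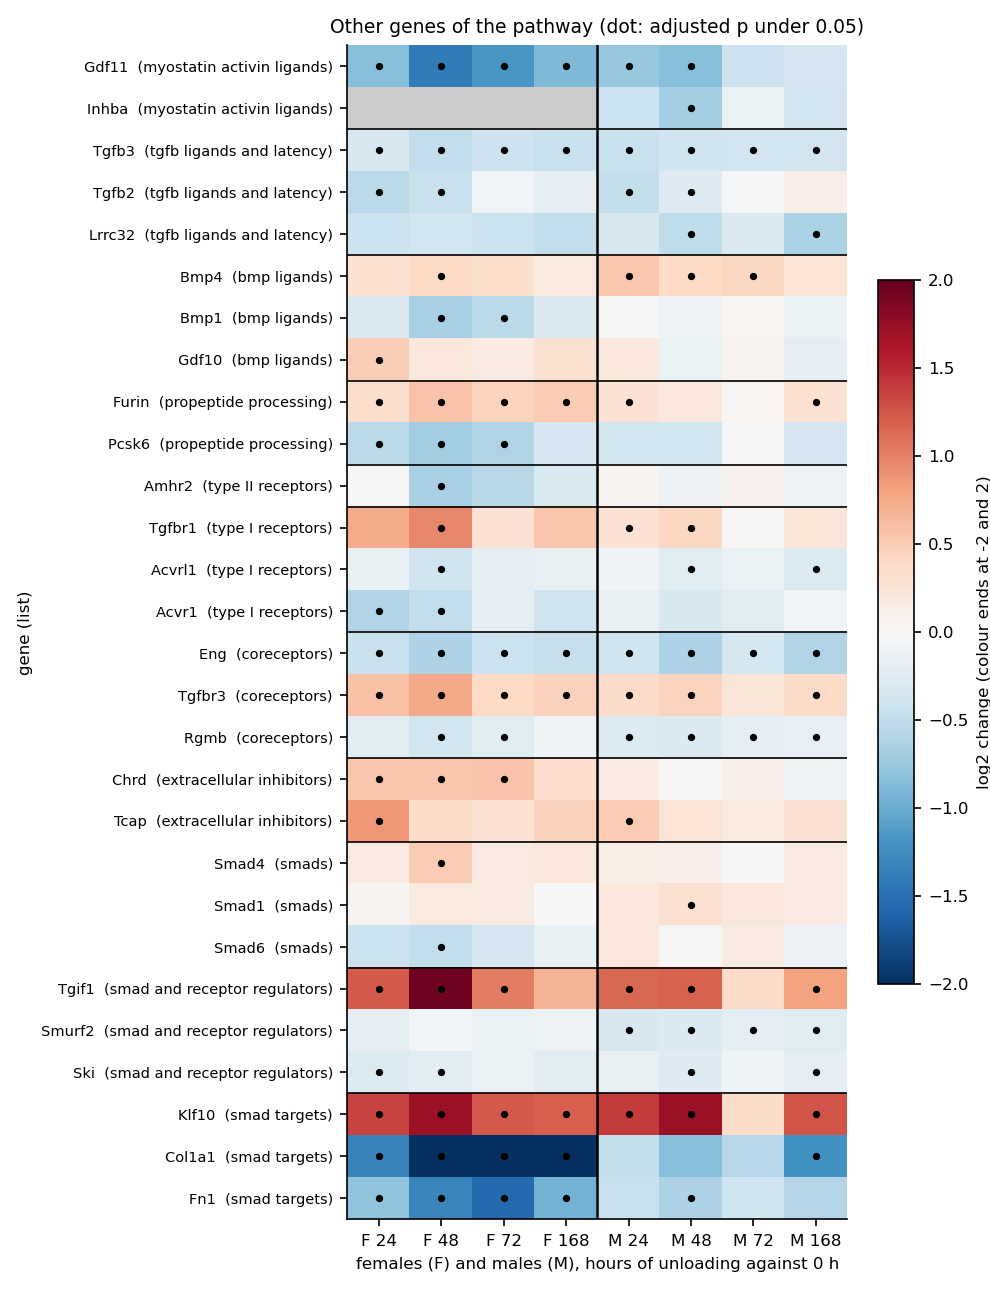
Log2 change from 0 h (colour) of 28 other genes of the pathway in 11 lists (rows) for females and males at 24, 48, 72 and 168 h (columns), a dot marking an adjusted p under 0.05 and grey a gene that is not in the female table. Eng and Tgfb3 are dotted and lower in all 8 columns, and Klf10 and Tgfbr3 are dotted and higher in 7. Bmp1, which is also in the list of propeptide processing, is drawn with the BMP ligands.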

How the data were processed

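Gastrocnemius RNA of mice was sequenced in 80 libraries. The authors deposited 1 table per sex of a normalized signal per gene and, per comparison with 0 h, a ratio and an FDR (an adjusted p-value) from DESeq2, per the file headers. STAR 2.7.8a, DESeq2, Partek, mm10 and mm39 are named in the submitters' processing notes, with no step given. The share of low values within 0.03 of a whole number of reads was 53.9% to 71.7% per library. Counts could thus not be recovered and no count model was run, and depth was estimated from the step between low values.

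Per sex, limma 3.58.1 (R 4.3.3, trend, robust) was fitted to log2(signal + 1) over all 5 groups. Sex differences came from a joint model of both tables. The fit was tested on simulated data. The design had foreseen a count model if the values proved to be counts. Groups follow the labels, and 0 sample columns were left unused. Figures used matplotlib 3.10.9.

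The members and gene lists were chosen with earlier results of these data known. Named genes were all members, per list up to 3 others called in most of the 8 comparisons with 0 h, and the 5 genes most like Mstn, Inhbb and Smad3, and 1 named gene is not reported here. Alternatives were a pseudocount of 10, a mean of at least 100, quantile and total scaling, array weights, a plain fit, the authors' table, and leaving out libraries, a set or the 7 libraries standing apart. Amino acid sequences were not used here.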

Additional observations from a re-analysis of the deposited data

Results flagged for a closer look

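Over 95 groups of values (each gene in each sex and time), 6 held a library far from the rest by Dixon's criterion, and chance flags about 1 in 20. Mstn in females at 48 h had its highest library at 3566, and the other 7 lay between 724 and 1733 (gap over range 0.645). Mstn in females at 168 h had its lowest library at 723, and the others lay between 1184 and 1491 (0.6002). Acvr2a in females at 48 h had its lowest library at 206, below 488 to 650 (0.637). Smad7 in females at 72 h had its highest at 151, above 81.02 to 107.8 (0.616). These last 2 are among the 7 libraries that stood apart. Smad2 in 0 h females had its lowest at 202, below 227 to 245 (0.594). Fst in 0 h males had its highest at 302, above 174 to 203 (0.777).

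The change at 72 h differed between the sexes for 4 named genes by the test of the difference itself, where 2.44% of all genes were called. Female minus male, it was -0.96 for Fstl1, -2.14 for Col1a1, -1.16 for Fn1 and -0.57 for Bmp1 on the log2 scale.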

How the results depend on the processing

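No paired analysis was possible because the titles give no replicate number that groups share. Log2 changes are unloaded over 0 h unless said otherwise, F is females, M is males. A pseudocount of 10 turned or ended no call of a member. The number of members called moved as follows: in M at 72 h to 1 with a mean of at least 100 (Inhbb is then not tested), and to 1 with only the libraries sharing the controls' set or only the others; from 24 to 48 h in F to 1 when scaled to the library total; in M from 72 to 168 h to 0 with a plain fit; with array weights to 4 in F at 24 h and 4 over the female course, also 4 without the 7 libraries that stood apart. Leaving out 1 library gave 2 to 6 members in M at 24 h and 1 to 2 at 72 h. By limma, array weights gained calls for Fst (-0.45, adjusted p = 0.032) and Fstl1 (0.039) in M at 24 h, Mstn in F at 24 h (0.62, 0.017) and Smad3 in F at 24, 72 and 168 h (0.031, 0.0043 and 0.0060), and lost those of Fstl1 in M at 48 h (0.068) and Acvr2b in M at 24 h (0.098). Quantile normalization gained Smad7 in M at 24 h (0.047) and Smad3 in F at 24 and 72 h (0.040 and 0.027) and lost Acvr2b in M at 24 h (0.064). Scaling to the total gained Fstl1 in M at 24 h (0.041). The cause was not tested.

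None of the values that turned sign had been called, but not all were near 0. Among them, Acvr2b had been -0.36 in F at 24 h and -0.16 in M at 168 h. The female minus male change of Mstn at 48 h had been 0.27. With quantile normalization the turned values were 0.066 and 0.085 for Fst in F at 48 and 72 h and 0.052 for Smad7 in M at 48 h. Scaled to the total, they were 0.014 and 0.075 for Fst in F at 48 and 72 h, 0.0065 for Acvr2a and 0.0033 for Smad2 in F at 72 h, and 0.033 for Mstn in F from 24 to 48 h. With array weights they were -0.036 and 0.0029 for Acvr2a in F at 48 and 72 h, 0.064 for Acvr2b in M at 168 h, 0.17 and 0.030 for Fst in F at 48 and 168 h, 0.0072 for Mstn in M at 72 h, -0.15 for the female minus male change of Mstn at 48 h, 0.014 and 0.019 for Smad2 in F at 72 h and M at 168 h, and -0.0056, -0.0027 and 0.020 for Smad7 in F at 72 h, M at 168 h and M at 48 h. Without the 7 libraries that stood apart they were 0.071, 0.052, 0.045 and -0.047 for Acvr2a in F at 72 h, Acvr2b in F at 24 h, Fst in F at 72 h and Smad7 in F at 72 h. In M at 72 h, the libraries of the controls' set gave 0.11 for Mstn, the others 4.6e-04 for Fst, and the authors' deposited table gave 0.0067 for Fst in F at 72 h.

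Leaving out 1 library gave, in F, ranges for Acvr2a of -0.035 to 0.31 at 24 h, -0.10 to 0.33 at 48 h, -0.33 to 0.22 at 72 h and -0.060 to 0.29 at 168 h, for Acvr2b of -0.15 to 0.054 at 48 h and -0.070 to 0.18 at 72 h, for Fst of -0.12 to 0.086 at 48 h, -0.077 to 0.13 at 72 h and -0.21 to 0.0063 at 168 h, for Smad2 of -0.12 to 0.0020 and for Smad7 of -0.016 to 0.11 at 72 h. In M they were -0.12 to 0.038 for Mstn, -0.14 to 0.0083 for Fst and -0.13 to 0.0081 for Acvr2b at 72 h, -0.072 to 0.065 and -0.013 to 0.12 for Smad7 at 48 and 168 h, and -0.0095 to 0.048 and -0.053 to 0.038 for Smad2 at the same times.

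Of all genes, scaling to the library total put 32.6% of the calls higher in M at 24 h, against 50.7% as reported, 39.8% against 55.9% in F at 24 h and 71.5% against 55.99% in F at 72 h, and the median gene moved by 0.10 in F at 48 h and 0.11 in F at 72 h. Quantile normalization put 43.0% of the calls higher in F at 24 h and 46.1% at 168 h, against 55.9% and 59.0%. Counts of genes called at 72 h in M were 516 and 816 with either part of the libraries, against 1392. With array weights they were 2103 there, 3120 against 1182 in F at 168 h, 286 against 737 in F from 24 to 48 h, 630 against 38 in M from 72 to 168 h, and 135 against 33 and 972 against 268 for the sex difference at 48 and 72 h. Leaving out libraries for the sex differences and the step of Mstn, and the same alternatives for the other pathway genes, were added after seeing the data: of 106 calls against 0 h, 25 were lost without some 1 library and 20 in some other alternative, and 0 reversed. Scaled to the total, the calls of Acvrl1 in F at 48 h, Eng in F at 72 h, Furin in F at 24 h and M at 24 and 168 h, Rgmb in F and M at 72 h, Smurf2 in M at 72 h and Tgfbr1 and Tgfbr3 in M at 24 h were lost, and the sex differences of Bmp1 (adjusted p = 0.069) and Fn1 (0.056, limma) were lost. With only the male 72 h libraries of another set than the controls, the 72 h calls of Bmp4 (0.14), Eng (0.073), Rgmb (0.14) and Smurf2 (0.16) were lost. With only those of the controls' set, the 72 h calls of Bmp4 (0.10) and Smurf2 (0.071, limma) were lost. Female depth was lowest at 24 and 72 h, and its part in which genes were called was not tested.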
